A study of Mus musculus with 9 samples.

Results

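Immune checkpoints and their costimulatory counterparts were followed in mouse liver at the level of 10 genes, taken by name from the 24341 rows of the deposited expression table. The genes encode 4 ligands of the B7 family, namely Cd274 (PD-L1), Pdcd1lg2 (PD-L2), Cd80 (B7-1), and Cd86 (B7-2), and 6 receptors, namely Pdcd1 (PD-1), Ctla4, Icos, Lag3, Havcr2 (TIM-3), and Tigit. Livers were collected 48 hours after treatment from wild-type C57BL/6 mice. There were 3 mice given anti-CD40, the agonist antibody FGK45 that activates CD40 (mice 2, 5, and 9), while mice 3, 4, 7, 8, 11, and 12 were the 6 controls and had PBS. The sample records give no age, sex, or dose for single animals, and across the study's experiments mice whose blood B cells did not fall after anti-CD40 were excluded. Each library is 1 liver, so that the error below is the spread between mice.

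T cells need a costimulatory signal together with recognition of antigen. CD80 and CD86 on antigen-presenting cells give this signal through CD28, and CTLA-4 on T cells binds the same ligands more tightly and restrains the response. PD-L1 and PD-L2 bind PD-1, another inhibitory receptor of activated T cells. PD-L1 is carried by many cell types and is induced by IFN-γ, whereas PD-L2 is largely restricted to dendritic cells and macrophages. ICOS is a costimulatory receptor related to CD28, and LAG-3, TIM-3, and TIGIT are inhibitory receptors of T cells and NK cells. CD40 is a receptor of antigen-presenting cells, and its activation is known to raise their B7 ligands.

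After anti-CD40, 3 of the 4 ligands and 3 of the 6 receptors stood above the whole control range in all 3 treated livers. These were Cd274, Pdcd1lg2, Cd80, Pdcd1, Ctla4, and Havcr2, with ratios of the group means between 8.97 and 18.4. Each had an exact permutation p of 0.0238 (2-sided), the smallest that 3 against 6 mice can give. The ratio was 1.66 for Cd86 and 1.44 for Icos, with overlapping groups. Lag3 and Tigit were listed at the lowest value of the table in all 9 mice. In limma across all genes, 7 of the 8 members that passed the filter on low values were higher and 0 were lower (adjusted p under 0.05). At an unadjusted p under 0.05 all 8 were higher. Without anti-CD40 mouse 2, 5 members passed the filter and 3 of them (Cd274, Cd80, and Havcr2) were called higher. Of all 13807 genes tested, 23.5% were higher and 21.7% were lower by the same rule, and 22.7% were higher with groups that did not overlap. Of the 8 members tested, 5 had a control mean under the filter of 0.1 and entered the test through their values in the anti-CD40 mice, so that their share of calls is a description.

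Levels are given as FPKM, fragments per kilobase of transcript scaled to mapped reads, in which 0.01 is the floor of the table. Because the QuantSeq libraries read transcripts from the 3′ end, the levels of different genes are not comparable, whereas the plain ratio of 1 gene between groups does not depend on its length. Fold changes of FPKM + 0.1 do depend on length for low genes, since the added 0.1 weighs more on a lower FPKM. A value at the floor is no proof of absence, since 6925 genes were at the floor in all mice, among them Hba-a1, a hemoglobin gene, although other red blood cell genes were read. For low genes the steps between values gave back whole reads, and the relative depth of the libraries lay between 0.87 and 1.13. Liver identity was clear from the hepatocyte genes, whose FPKM summed to 4004 to 4460 after anti-CD40 and to 12290 to 21330 after PBS. In 3 libraries a list of other cells stood apart. Exocrine pancreas genes summed to 763.6 FPKM in anti-CD40 mouse 5, against 27.3 and 31.3 in the other anti-CD40 mice and at most 188.8 in a control mouse. Erythroid genes summed to 50520 FPKM in control mouse 4, against at most 13470 in the other control mice. Among the anti-CD40 mice they summed to 14320 in mouse 2 and to 4175 and 4763 in the others. Without mouse 4 or without mouse 5, the 6 members with separated groups kept their calls in limma. Without mouse 2, Pdcd1lg2, Pdcd1, and Ctla4 fell under the filter, and their differences of mean log2(FPKM + 0.1) were 1.79, 1.70, and 1.62.

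**Figure D1:**
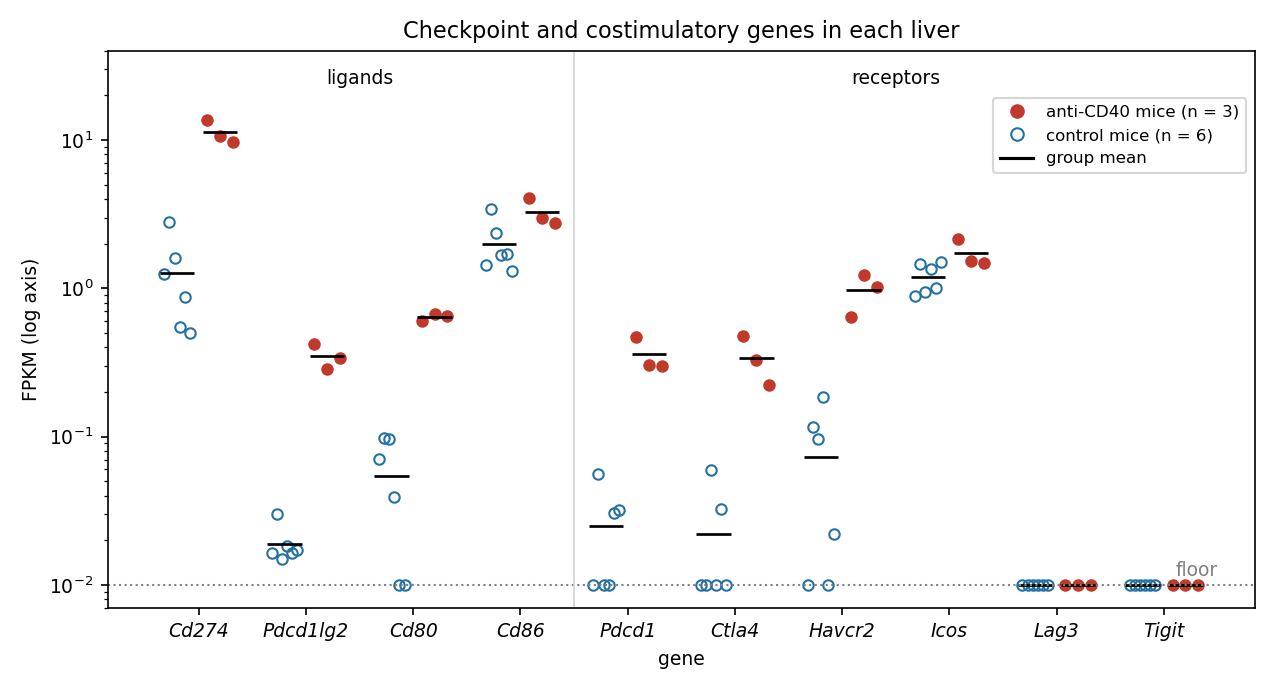
FPKM (log axis) of the 10 genes in each liver, with filled points for the 3 anti-CD40 mice, open points for the 6 control mice, horizontal lines for group means, and a dotted line at the floor of 0.01 FPKM. The groups are separated for Cd274, Pdcd1lg2, Cd80, Pdcd1, Ctla4, and Havcr2, overlap for Cd86 and Icos, and lie at the floor for Lag3 and Tigit.

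Cd274 and Pdcd1lg2 are neighbors on chromosome 19. In mm10, Cd274 spans chr19:29367438-29388094 and Pdcd1lg2 chr19:29410919-29472927, both on the plus strand and 22824 bases apart. Cd80 lies on chromosome 16 (chr16:38458933-38486932, plus strand). Because these 3 ligands rose together, the 250 bases before 1 annotated start of each are shown, from the RefSeq table of build GRCm38.p6 (the assembly of mm10). The windows are chr19:29367188-29367437, chr19:29410669-29410918, and chr16:38458683-38458932. They end at the starts of the deposited positions. Starts farther upstream are annotated for Cd274 (29362107 in RefSeq) and Cd80 (38457430 in RefSeq and 38455561 in GENCODE), and the bases before those were not searched. Capitals mark matches to the letters searched for.
Cd274: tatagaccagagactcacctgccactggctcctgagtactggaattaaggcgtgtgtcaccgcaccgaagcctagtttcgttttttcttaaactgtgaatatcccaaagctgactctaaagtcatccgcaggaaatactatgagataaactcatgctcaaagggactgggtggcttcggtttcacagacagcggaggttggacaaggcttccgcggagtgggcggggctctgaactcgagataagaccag
Pdcd1lg2: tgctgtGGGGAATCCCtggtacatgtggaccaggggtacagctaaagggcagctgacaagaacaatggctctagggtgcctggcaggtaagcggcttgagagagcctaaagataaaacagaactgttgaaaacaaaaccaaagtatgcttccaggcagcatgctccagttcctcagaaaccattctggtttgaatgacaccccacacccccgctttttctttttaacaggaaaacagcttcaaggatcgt
Cd80: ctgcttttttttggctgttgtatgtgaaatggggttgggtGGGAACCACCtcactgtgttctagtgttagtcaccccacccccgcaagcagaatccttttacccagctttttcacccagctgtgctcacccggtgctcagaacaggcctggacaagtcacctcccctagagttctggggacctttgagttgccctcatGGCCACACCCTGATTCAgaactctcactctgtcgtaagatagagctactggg
The letters searched for on both strands were TTCNNNGAA for STAT factors, GAAA and GAAA with 2 bases between them for IRF factors, GGG and CC with 5 bases between them for NF-κB, and TGANTCA for AP-1. Among 32851 promoter windows of the same length, 7.02%, 2.98%, 45.8%, and 6.75%, respectively, hold a match. The Cd274 window has none. The Pdcd1lg2 window has the NF-κB letters as GGGGAATCCC at -244 to -235 from the start. The Cd80 window has the NF-κB letters at -210 to -201 and at -52 to -43 and the AP-1 letters at -42 to -36. Table entries exist for 7 of the 10 members. Among the receptors with an entry, the Havcr2 window has the AP-1 letters at -200 to -194. The windows of Pdcd1, Ctla4, and Tigit have no match. A match describes the letters of the window and no more.

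Cd274, the gene for PD-L1, was the ligand with the most recovered reads in the anti-CD40 mice (2445, against 483 for Cd86). In the control mice Cd86 had more (539, against 514 for Cd274). In mice 2, 5, and 9, which received anti-CD40, Cd274 reached 13.6, 10.6, and 9.70 FPKM. In control mice 3, 4, 7, 8, 11, and 12 it was 1.25, 2.79, 1.60, 0.546, 0.878, and 0.501. The lowest anti-CD40 mouse thus stood 3.47-fold above the highest control, although the control livers themselves spanned a 5.58-fold range. The means were 11.3 ± 2.05 (SD, n = 3) and 1.26 ± 0.860 (SD, n = 6), a ratio of 8.97. On the scale of log2(FPKM + 0.1), the fold change was 3.28 (SE 0.45, 95% CI 2.28 to 4.27, adjusted p = 0.000201 in limma), above that of 98.6% of the genes tested. The call was kept in all 19 alternatives, with fold changes between 2.51 and 3.62.

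Pdcd1lg2, the gene for the second PD-1 ligand, was nearly unread in control livers. It had 1 read in each control mouse except mouse 4, with 2, and 30, 19, and 21 reads in the anti-CD40 mice. Its FPKM was 0.421, 0.284, and 0.337 after anti-CD40 and 0.0150 to 0.0302 in the controls. This was a log2 fold change of 1.90 (SE 0.20, adjusted p = 3.56e-05 in limma).

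Cd80, which encodes the B7-1 ligand of CD28 and CTLA-4, had the same pattern. It had 20, 21, and 19 reads after anti-CD40, while the control mice had 2, 3, 3, 1, 0, and 0. The FPKM was 0.604, 0.674, and 0.655 against 0.01 to 0.0972, and the log2 fold change was 2.32 (SE 0.26, adjusted p = 5.12e-05 in limma). The 3 treated livers differed among themselves by less for this gene than for the other called members. The deposited position of Cd80 stops short of its annotated 3′ end, by 9403 bases in GENCODE and 9026 in RefSeq. Whether reads from the stretch beyond were counted is unknown, so the level of Cd80 may be understated.

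Cd86, which encodes the B7-2 ligand, was readily detected in control livers and moved little. Its FPKM was 4.10, 3.00, and 2.76 after anti-CD40 and 1.44, 3.40, 2.35, 1.68, 1.70, and 1.31 in control mice 3, 4, 7, 8, 11, and 12. Control mouse 4 exceeded anti-CD40 mice 5 and 9. The log2 fold change of 0.76 (SE 0.28) had an adjusted p of 0.0476 in limma and an exact permutation p of 0.0714 (2-sided, 84 splits). The limma call was lost in 10 of 19 alternatives, among them leaving out any 1 anti-CD40 mouse (adjusted p up to 0.191 in limma), leaving out control mouse 3, 8, 11, or 12 (up to 0.0860), and quantile normalization (0.106). The direction was kept in all of them. RefSeq places the 3′ end of Cd86 34913 bases beyond the deposited position, while GENCODE places it at the end of that position.

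Among the receptors, Pdcd1, Ctla4, and Havcr2 rose from near the floor. Pdcd1, the gene for PD-1 (chr1:94038305-94052553, minus strand), had 18, 11, and 10 reads in the anti-CD40 mice and 0, 2, 0, 0, 1, and 1 in the control mice. Its FPKM of 0.471, 0.306, and 0.299 compared with 0.01 to 0.0562 in the control mice, a log2 fold change of 1.87 (SE 0.23, adjusted p = 9.79e-05 in limma). Ctla4 (chr1:60909025-60915832, plus strand) had 17, 11, and 7 reads against 0, 0, 2, 0, 1, and 0. Its FPKM was 0.474, 0.326, and 0.223 after anti-CD40 and 0.01 to 0.0596 in the control mice, and its log2 fold change was 1.83 (SE 0.25, adjusted p = 0.000212 in limma). For both receptors anti-CD40 mouse 2 was the highest, and no control mouse had more than 2 reads.

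Havcr2, the gene for TIM-3, which is carried by exhausted T cells as well as by macrophages and dendritic cells, was read in 4 of the 6 control livers. It had 36, 65, and 50 reads after anti-CD40 and 0, 6, 5, 8, 0, and 1 in the control mice. The FPKM was 0.644, 1.24, and 1.02 against 0.01 to 0.186, with a log2 fold change of 2.68 (SE 0.36, adjusted p = 0.000173 in limma). In the deposited table the row of Havcr2 carries a position that it shares with 9 other genes, so that how reads were divided within this stretch of chromosome 11 is unknown.

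Icos, a neighbor of Ctla4 on chromosome 1 at a distance of 62081 bases, was read in every liver. Its FPKM was 2.16, 1.52, and 1.49 after anti-CD40 and 0.892, 1.46, 0.948, 1.35, 1.01, and 1.51 in control mice 3, 4, 7, 8, 11, and 12. Control mouse 12 exceeded anti-CD40 mouse 9, and the other 5 control mice lay below all anti-CD40 mice. The log2 fold change was 0.50 (SE 0.21) with an adjusted p of 0.0756 in limma, while the exact permutation p was 0.0476. Gene models annotated on the same strand within Icos (Gm37039) and on the opposite strand at Cd274 (AC119228.1) and Pdcd1lg2 (A930007I19Rik) overlap these members. Another on the same strand (Rpl18-ps1) overlaps Ctla4 in GENCODE, where Ctla4 starts farther upstream than in its deposited position. Reads from these models were not separated here.

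Lag3 (chr6:124904359-124911705, minus strand) and Tigit (chr16:43648861-43664184, minus strand) were at 0.01 FPKM in all 3 anti-CD40 mice and all 6 control mice. They did not pass the filter and were not tested. RefSeq places the 3′ end of Tigit 22724 bases beyond the deposited position, while GENCODE places it within that position. Whether its 3′ reads were counted is thus unknown. A change of either gene was not detectable in these data.

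**Figure D2:**
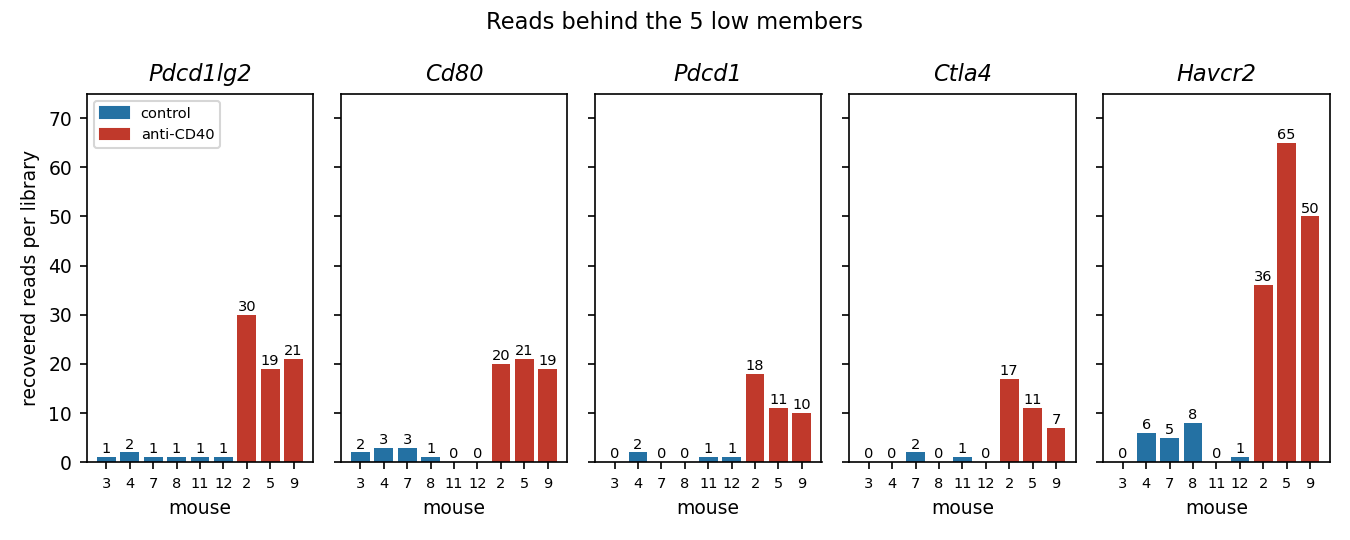
Whole reads recovered for Pdcd1lg2, Cd80, Pdcd1, Ctla4, and Havcr2 in each library (vertical axis, reads; horizontal axis, mouse number), with blue bars for the 6 control mice and red bars for the 3 anti-CD40 mice. Control bars do not pass 8 reads, and anti-CD40 bars start at 7 reads for Ctla4 and reach 65 reads for Havcr2.

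Because adding 0.1 FPKM shrinks the fold change of low genes, the reads give a second scale for the size of each change. The reads were summed within groups and divided by relative depth, and exact Clopper-Pearson 95% intervals cover counting error only, since the reads carry no molecular identifiers. By this measure the change was 21.4-fold for Ctla4 (6.75 to 109, from 35 and 3 reads), 18.4-fold for Pdcd1lg2 (8.45 to 47.3), and 17.9-fold for Pdcd1 (6.46 to 69.0). It was 13.9-fold for Havcr2 (8.66 to 23.3), 12.2-fold for Cd80 (6.04 to 28.1), and 8.73-fold for Cd274 (7.94 to 9.62). Cd86 (1.64-fold, 1.45 to 1.86) and Icos (1.46-fold, 1.26 to 1.70) lay below all of these. Cd274, first on the log2(FPKM + 0.1) scale, was thus the sixth of the 8 by reads, and the intervals of the 6 higher genes overlap.

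The direct partners of the members moved in both directions. Cd28, the costimulatory receptor for CD80 and CD86, was 0.482, 0.571, and 0.576 FPKM after anti-CD40 and 0.0509 to 0.130 in control mice (log2 fold change 1.80, SE 0.21, adjusted p = 8.02e-05 in limma). Icosl, which encodes the ligand of ICOS, rose from a control median of 0.112 to 0.709, 0.415, and 0.850 FPKM (1.75, SE 0.32, adjusted p = 0.00118 in limma). Both rose, while the call for Icos itself was not made. Btla, which encodes an inhibitory receptor of B and T cells and is the member of the wider B7 and CD28 family with the largest increase, was 2.44, 1.95, and 2.40 FPKM against 0.110 to 0.592 (2.74, SE 0.35). In this wider family 6 of 7 tested genes were higher and 0 lower, with a median log2 fold change of 1.16, against 0.0056 over all genes.

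The genes around TIGIT and TIM-3 were mixed. Pvr, which encodes the main ligand of TIGIT, rose from a control range of 0.772 to 0.909 to 1.73, 1.70, and 1.77 FPKM (log2 fold change 0.93, SE 0.12, adjusted p = 0.000173 in limma). Cd96, whose product binds the same ligand on T and NK cells, was 1.71 higher on the log2 scale (adjusted p = 6.46e-05 in limma). The activating competitor gene Cd226 was 0.186, 0.148, and 0.159 FPKM against 0.0302 to 0.149, and its call was not made (0.49, adjusted p = 0.141 in limma). Pvrl2 (Nectin2) was called higher (0.66, adjusted p = 0.0457 in limma), a call lost in 8 of 19 alternatives. Pvrl3 (Nectin3) fell by 0.73 on the log2 scale, from 19.5 to 25.3 FPKM in the control mice to 14.3, 13.6, and 12.2 (adjusted p = 0.000691 in limma). With the Saa genes Saa1, Saa2, and Saa3 left out and each mouse rescaled it was -0.37 (adjusted p = 0.0486 in limma).

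A pair of ligands described for TIM-3 were well detected in liver, and neither followed Havcr2 upwards. Lgals9 (galectin-9) was 60.6, 65.4, and 72.2 FPKM after anti-CD40 and 65.9 to 104 in the controls, with a log2 fold change of -0.42 (adjusted p = 0.0367 in limma) that lost its call in 12 of 19 alternatives and was -0.05 with the Saa genes left out and each mouse rescaled and -0.08 with quantile normalization. Ceacam1 had a log2 fold change of -0.33 with no call (adjusted p = 0.0563 in limma), and 0.03 with the Saa genes left out. It was called lower in 3 alternatives, namely array weights (-0.31), without anti-CD40 mouse 2 (-0.43), and without control mouse 11 (-0.38). Fgl1, a hepatocyte gene whose product is a ligand of LAG-3, rose from 1794 to 3907 FPKM in control mice to 10880, 9400, and 9814 (2.1, SE 0.23, adjusted p = 5.22e-05 in limma). Its receptor gene Lag3 is 1 of the 2 members at the floor. Of the 8 listed partner genes, 4 were higher and 2 lower, where 23.5% of all genes tested were higher and 21.7% lower.

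**Figure D3:**
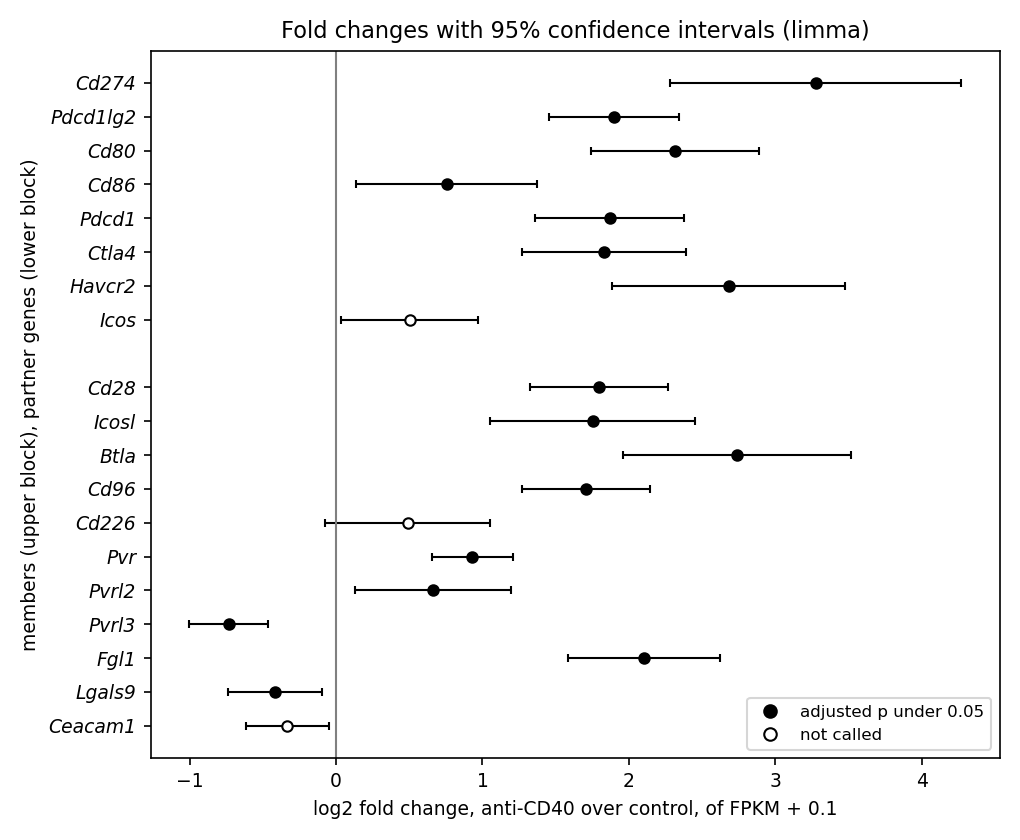
Log2 fold changes of FPKM + 0.1 (horizontal axis, anti-CD40 over control, 3 and 6 mice) for the 8 tested members (upper block) and 11 partner or related genes (lower block), as points with 95% confidence intervals from limma, filled where the adjusted p was under 0.05. Cd274 and Havcr2 lie farthest to the right among the members, Icos is open, and Pvrl3, Lgals9, and Ceacam1 lie to the left of 0.

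Other routes that restrain or support T cells were followed with lists of genes. Among costimulatory pairs of the TNF family, 6 of 7 tested genes were higher and 0 lower. As for the members, genes with a control mean under 0.1 FPKM entered the test only through the anti-CD40 mice, and the counts hold 2 of them here (Tnfrsf9 and Tnfsf9), 1 in the wider B7 family (Cd28), 2 among the partners (Cd226 and Cd96), and 2 in the other inhibitory routes (Klrg1 and Ido1). Cd40 itself, the target of the antibody, was 30.9, 20.1, and 21.8 FPKM against 0.723 to 2.13 (log2 fold change 4.10, SE 0.29). Tnfrsf9, which encodes the activation receptor 4-1BB, was 1.89, 2.09, and 1.78 against 0.01 to 0.131 (3.85, SE 0.26), and 215 reads in the anti-CD40 mice compared with 8 in the control mice. Of 13 tested genes of other inhibitory routes, 9 were higher and 1 lower. Klrg1, a receptor gene of NK cells and effector T cells, was higher by 2.96 on the log2 scale, and Cd48, which encodes the ligand of CD244, by 2.62. Nt5e, which encodes the adenosine-forming enzyme CD73, fell by 1.22. Ido1, which encodes a tryptophan-degrading enzyme induced by IFN-γ, had 24 reads in the anti-CD40 mice and 0 in the control mice, at least 14.7-fold higher against a floor of 3 reads over the control group.

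IFN-γ acts through JAK and STAT proteins and IRF factors and is a known inducer of PD-L1. Of 14 genes of this route, 12 were higher and 0 lower, with a median log2 fold change of 1.23. The 2 genes not called were Irf1 (0.33, adjusted p = 0.179 in limma) and Irf2 (0.32, adjusted p = 0.0648 in limma). Irf1 was 52.8, 41.9, and 51.1 FPKM after anti-CD40 and 30.6 to 52.3 in the control mice. In the lists with 0 lower genes here and above, the limma count of lower genes was also 0 at an unadjusted p under 0.05. Batf, a transcription factor gene of activated lymphocytes and dendritic cells, was 3.56, 3.71, and 3.47 FPKM against 0.159 to 0.673 (3.05, SE 0.32, adjusted p = 3.49e-05 in limma). Socs1, a feedback inhibitor of JAK signaling, was 14.3, 11.3, and 8.08 against 0.931 to 3.49 (2.69, SE 0.36, adjusted p = 0.000169 in limma).

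In bulk liver, more cells of a type and more RNA per cell cannot be told apart, and genes of several cell types that carry the members moved with the treatment. All 12 T cell genes were higher, and their summed FPKM was 18.1 to 21.5 after anti-CD40, compared with 4.65 to 8.06 in controls. Both tested CD8 T cell genes were higher, Cd8a by 2.62 on the log2 scale (adjusted p = 8.96e-05 in limma). Of the regulatory T cell genes, which are of interest because these cells carry CTLA-4 and ICOS, Il2ra was higher by 1.75, while Foxp3, their defining factor, was 3.90, 3.93, and 3.69 FPKM against 1.87 to 3.83 (0.47, adjusted p = 0.0805 in limma). All 5 tested genes of NK cells and all 5 of B cells were higher. The lists of T cells, CD8 T cells, regulatory T cells, NK cells, and B cells each hold 1 gene that passed the filter only through the anti-CD40 mice (Cd28, Cd8a, Il2ra, Eomes, and Cd79a).

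Among myeloid genes, 6 of 10 macrophage and monocyte genes were higher and 1, Adgre1, lower. Their summed FPKM was 333 to 446 after anti-CD40 and 67.3 to 102 in control mice. Of the 7 tested dendritic cell genes 6 were higher, with a median log2 fold change of 0.847 over the 7. Itgax (4.21) and Ccr7 (3.46) had the largest increases, while Zbtb46, Clec9a, and Siglech rose by 0.71, 0.85, and 0.67. Xcr1 was not called (-0.05, adjusted p = 0.896 in limma). All 5 tested neutrophil genes were higher (S100a9 at 7.02). In each list 1 gene (Flt3 and Cxcr2) passed the filter only through the anti-CD40 mice. Cd209a, a dendritic cell gene named after its values were seen, was under the filter and not tested, with 0 reads in each anti-CD40 mouse and 3, 6, 7, 2, 1, and 1 in the control mice. In contrast, all 6 Kupffer cell genes were lower, and their sum was 39.0 to 50.7 FPKM against 285 to 456. Of 6 sinusoidal endothelial genes, 2 were higher and 3 lower. Of 5 stellate cell genes, 2 were higher and 2 lower, and of 4 cholangiocyte genes, Sox9 was higher. Of 6 hepatocyte genes, 5 were lower, and of the 8 exocrine pancreas and 4 erythroid genes tested limma called 0, with 3 and 0 at an unadjusted p under 0.05. The part of these cells in the levels of the members was not tested, except as far as the following comparison goes.

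Each member was next set against another reading in the same liver, to ask whether the 2 changed by different amounts. The difference of log2(FPKM + 0.1) was taken within each mouse and compared between groups with a 2-sided exact permutation test over 84 splits, the smallest p being 0.0238. Adjusted p-values are over the family of 12 comparisons, of which 6 passed 0.05. Each of these 6 had the smallest p, so that their shared adjusted p of 0.0476 depends on all 6 together. Lag3 and Tigit were left out. Relative to 10 macrophage and monocyte genes, which rose by 1.89 on average, Cd274 rose by 1.38 more (exact permutation, adjusted p = 0.0476) and Cd86 differed from them by -1.14 (exact permutation, adjusted p = 0.0476). In each case all 3 anti-CD40 mice lay outside the range of the 6 control mice. Both held with pseudocounts of 1 and 0.01 and under the other scalings.

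Relative to 11 T cell genes (Cd28 left out), which rose by 1.39 on average, Icos differed by -0.89 (exact permutation, adjusted p = 0.0476), and relative to Cd28 the difference was -1.29 (exact permutation, adjusted p = 0.0476). With a pseudocount of 1 these differences were -0.40 and -0.19 (exact permutation, adjusted p = 0.0714 and 0.286). Havcr2 exceeded the T cell genes by 1.29 (exact permutation, adjusted p = 0.0816), since control mouse 8 lay above anti-CD40 mouse 2. Pdcd1 and Ctla4 differed from the T cell genes by 0.47 and 0.43, and Ctla4 differed from Cd28 by 0.03, each with an adjusted p of 0.107 or more in the exact permutation test.

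Cd80 rose by 1.56 more than Cd86 (exact permutation, adjusted p = 0.0476), a difference that was 0.09 with a pseudocount of 1. Cd274 rose by 1.38 more than Pdcd1lg2 (exact permutation, adjusted p = 0.0476) but the difference was -0.23 with a pseudocount of 0.01, so that which of the PD-1 ligands changed more depends on the scale. Against the macrophage genes, Pdcd1lg2 differed by 0.01 and Cd80 by 0.42 (exact permutation, adjusted p = 0.952 and 0.127). For the members with few reads these comparisons change with the pseudocount. With 0.01, Pdcd1 and Ctla4 exceeded the T cell genes by 1.87 and 1.92, and Pdcd1lg2 and Cd80 the macrophage genes by 1.68 and 1.73 (exact permutation, adjusted p = 0.0317 for all 4). With 1, all 4 were negative.

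**Figure D4:**
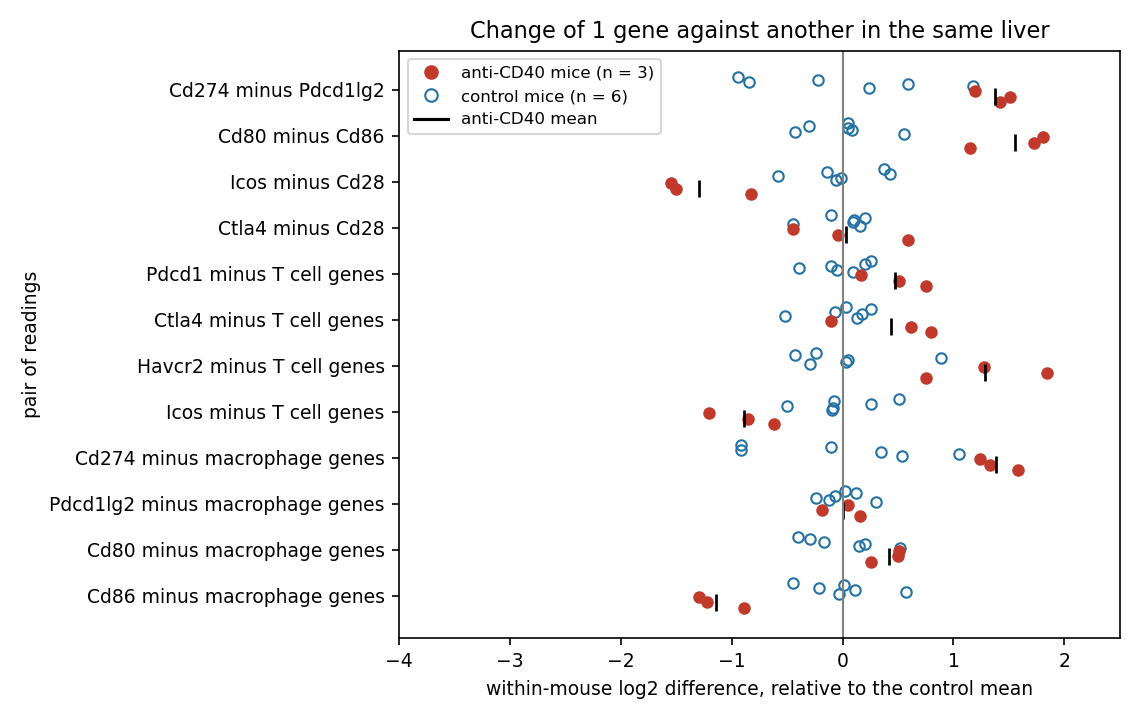
Within-mouse differences of log2(FPKM + 0.1) between 2 readings, each relative to the mean of the 6 control mice (horizontal axis), for the 12 comparisons named on the vertical axis, with filled points for anti-CD40 mice, open points for control mice, and a line at the anti-CD40 mean. All anti-CD40 mice lie to the left of the control mice for Icos minus Cd28, Icos minus T cell genes, and Cd86 minus macrophage genes.

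The genes most like Cd274 over the 9 mice were Gbp11 (Pearson r = 0.998), Clic4 (0.996), and Magohb (0.994). This likeness is not particular to them, since 480 of 13806 genes had an r of at least 0.95 and the points share the treatment. Over deviations from the group means, the most similar genes were Hs3st1 (0.993), Uba2 (0.992), and Ccng1 (0.992), and 125 genes reached 0.95. Lag3 did not vary, so no gene could be compared with it. Among the members above the floor, control mouse 4 was the highest control for 5 of 8 (Cd274, Pdcd1lg2, Cd80, Cd86, and Pdcd1), and anti-CD40 mouse 2 was the highest treated liver for 6 of 8.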

How the data were processed

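The authors isolated RNA from the livers, made QuantSeq 3′ libraries, and sequenced them. Reads were aligned to mm10 with STAR (BaseSpace RNA-Seq Alignment), and the deposited FPKM values were made by the authors with Cufflinks and CuffDiff. The annotation and the filter applied to the table are not given in the sources used here. Genes with a failed estimate (15) were left out, leaving 24326. The FPKM were tested as log2(FPKM + 0.1) wherever the 9 mice averaged 0.1 or more, using limma 3.58.1 (R 4.3.3, eBayes with a trend), Benjamini-Hochberg adjustment over all 13807 genes, and a threshold of 0.05. Single values were tested by exact permutation over 84 splits. Whole reads were recovered from the steps between low values: 95.6% of 3645 low genes came out whole in every mouse within 0.05 reads. Multiples of these whole numbers would give the same values, so that true reads may be higher and the absolute depth is unknown. No count test was run, since the deposited values are FPKM and whole reads were not recovered for every gene.

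The 10 members, the gene lists, and the comparisons were chosen with earlier results of these data known. The lists came from general knowledge, and 163 of 165 genes matched the table, older names through RefSeq. Named were all members, their direct partners, and up to 2 largest increases and 2 largest decreases among the called genes of each list, of which not every one is given. Positions come from the deposited table, overlaps from GENCODE vM21, and other annotated starts and ends from GENCODE vM21 and RefSeq. The scripts were tested on simulated data. Python 3.11.15 with pandas 2.3.3, numpy 2.4.6, and matplotlib 3.10.9 did the other steps. Alternatives were pseudocounts of 1 and 0.01, a filter at a mean of 1 FPKM or none, quantile and median of ratios scaling, leaving out Saa1, Saa2, and Saa3 with rescaling, eBayes without a trend or robust, array weights, and leaving out each mouse.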

Additional observations from a re-analysis of the deposited data

Results flagged for a closer look

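Within the control group, 30 readings were examined for a mouse apart from the other 5. They were those of the members, their direct partners, and the within-mouse differences. Of these, 2 passed Dixon's 95% limit for 6 mice, about the 1.5 that chance gives. For Pdcd1lg2, mouse 4 was the highest control, with a gap of 0.786 of the whole range (0.0302 FPKM, the next being 0.0183), which is the step from 1 read to 2. Control mouse 8 was the highest for Havcr2 minus the T cell genes, with a gap of 0.636 of the range (-0.80 on the log2 scale, the next being -1.64). Neither reading changed the separation of the groups for Pdcd1lg2 or Havcr2 itself.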

How the results depend on the processing

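Cd274, Pdcd1lg2, Cd80, Pdcd1, Ctla4, and Havcr2 kept their direction and call in limma in every alternative in which they were tested (17 to 19 each). With a mean FPKM of at least 1, 3 members were tested and 2 were called higher, and the genes called higher were 22 in the pathway lists and 26 in the marker lists, since fewer genes were tested. Leaving out 1 mouse gave between 3 and 7 members called higher; the count of 3 came without anti-CD40 mouse 2, where 5 members passed the filter and Cd86 lost its call. With the Saa genes left out and each mouse rescaled, the median over all genes was 0.346 on the log2 scale, with 5593 genes called higher and 1649 lower. The share of calls that were higher was then 77.2%, against 52.0% as reported, and it was 46.4% with quantile normalization and 44.7% with a mean FPKM of at least 1. Under this rescaling Icos was called higher (log2 fold change 0.85, adjusted p = 0.00517 in limma), as it was with array weights (0.59) and without control mouse 12 (0.57), and Ceacam1 was 0.0316. The exact permutation p of Icos rose to 0.357 with quantile normalization and to 0.0714 without control mouse 3, 4, 7, 8, or 11. That of Cd86 fell to 0.0238 with the Saa genes left out and to 0.0357 without control mouse 4. Without 1 anti-CD40 mouse the smallest exact p is 0.0714, so those runs give values with no call.

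Among the within-mouse differences, these changed sign. Cd274 minus Pdcd1lg2 was -0.23 with a pseudocount of 0.01. Ctla4 minus Cd28 was -0.12 with a pseudocount of 1, -0.0207 with the Saa genes left out, and between -0.25 and 0.28 over the left-out mice, being negative without anti-CD40 mouse 2 or control mouse 4. With a pseudocount of 1, Pdcd1 and Ctla4 minus the T cell genes were -0.30 and -0.32, and Pdcd1lg2 and Cd80 minus the macrophage genes were -1.17 and -0.93. Pdcd1lg2 minus the macrophage genes was also -0.45 with quantile normalization, -0.14 with the Saa genes left out, and between -0.0676 and 0.10 over the left-out mice, being negative without anti-CD40 mouse 2 or 9 or control mouse 4, 7, or 8. Apart from the pseudocount, which acts on low values by its construction, the cause was not tested. No paired analysis was possible because the groups share no replicate number. Low members rest on few recovered control reads, and the counting intervals of their changes overlap.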
